A study of Rattus norvegicus with 88 samples.

Results

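Passenger-strand microRNAs (miRNAs) of rat liver, whose names end in a star (miR-22* beside miR-22), were described over the life span. Members were chosen by name and by detection: a miRNA was taken where its name on the array ended in a star and its total gene signal was above 0.1, the value that stands for not detected, on at least 20 of the 88 arrays. This gave 35 star miRNAs. The array held 240 star miRNAs among 677 miRNAs, and 68 of the stars were detected on at least 1 array. Only the number of arrays with a signal was used in the choice, so that number describes the members and is not a result. Just inside the limit, miR-30c-1* was detected on 20 arrays and miR-33* on 21. Just outside it, miR-30d* was detected on 18 and miR-32* on 17.

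The livers came from untreated Fischer 344 rats of the NCTR colony, females and males, aged 2 weeks (young), 5, 6, 8, 15 or 21 weeks (adult) or 52, 78 or 104 weeks (old). Each of the 88 one-colour arrays (45 female, 43 male) held RNA of 1 animal, and each age and sex had 5 arrays, apart from 4 for males of 5 weeks and 4 for males of 104 weeks. Pieces of whole liver were homogenized, so fewer cells of a type and less RNA per cell cannot be told apart. A level is the signal of a miRNA divided by the 75th percentile of the 314 miRNAs expressed on any array, and it has no unit. A miRNA that was not detected on an array was given the lowest level measured on any array, 0.01202. A difference was called where limma's adjusted p was below 0.05 over all 314 miRNAs and the change was at least 1.5-fold.

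In the nucleus and cytoplasm, a miRNA precursor hairpin is cut by Drosha and then Dicer into a duplex of 2 short strands. An Argonaute protein keeps one strand, the guide, and the passenger strand is usually released and degraded, although some passenger strands persist and can be loaded themselves. The seed, bases 2 to 8 from the 5′ end, directs pairing with target transcripts, so both arms of a hairpin address different transcripts. Since both arms of a hairpin arise from 1 transcript, their levels share the output of the gene and of both nucleases. The ratio of star to guide also carries the choice of strand and the stability of each strand. The guides miR-466b, miR-30c, miR-7a and miR-194 have 2 loci each, so their signal can come from 2 hairpins. The ratios of miR-466b-1*, miR-466b-2*, miR-30c-1*, miR-30c-2*, miR-7a-1* and miR-194* to them also carry the output of the other locus.

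The mature sequences of the stars on which the results turn, with their guides where the sequence table holds them, show how little the arms of a hairpin share. They are written 5′ to 3′ from RefSeq (GRCr8), with the seed in capitals. The guide miR-466b has the same sequence at a second locus, chr17:72945547-72945568, which is not in the list.
miR-378* (chr18:57128962-57128983, minus strand): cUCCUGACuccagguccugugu
miR-22* (chr10:60805349-60805370, plus strand): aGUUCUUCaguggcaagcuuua
miR-22 (chr10:60805387-60805408, plus strand): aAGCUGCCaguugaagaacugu
miR-193* (chr10:65170336-65170357, plus strand): uGGGUCUUugcgggcaagauga
miR-193 (chr10:65170370-65170391, plus strand): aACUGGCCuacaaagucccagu
miR-29c* (chr13:109099374-109099395, plus strand): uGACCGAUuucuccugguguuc
miR-29c (chr13:109099412-109099433, plus strand): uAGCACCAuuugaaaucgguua
miR-652* (chrX:111140088-111140110, plus strand): aCAACCCUaggagggggugccau
miR-652 (chrX:111140129-111140149, plus strand): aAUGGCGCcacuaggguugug
miR-322* (chrX:137726162-137726181, minus strand): aAACAUGAagcgcugcaaca
miR-322 (chrX:137726198-137726219, minus strand): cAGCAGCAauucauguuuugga
miR-483* (chr1:207247903-207247924, minus strand): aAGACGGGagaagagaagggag
miR-483 (chr1:207247865-207247886, minus strand): cACUCCUCcccucccgucuugu
miR-99a* (chr11:29687441-29687462, plus strand): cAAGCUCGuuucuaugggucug
miR-31* (chr5:108714869-108714891, minus strand): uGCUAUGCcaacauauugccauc
miR-31 (chr5:108714906-108714927, minus strand): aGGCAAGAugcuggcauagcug
miR-455* (chr5:81704881-81704902, plus strand): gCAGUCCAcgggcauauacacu
miR-466b-2* (chr17:72942475-72942495, minus strand): aUAUACAUacacacauacaca
miR-466b (chr17:72942513-72942534, minus strand): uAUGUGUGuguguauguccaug
miR-505* (chrX:143778818-143778840, minus strand): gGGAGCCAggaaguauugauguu
miR-505 (chrX:143778784-143778803, minus strand): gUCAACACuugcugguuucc

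A mature sequence was matched for 32 of the 35 stars and for 26 of their 32 guides. In the array's own names, 24 stars lay on the 3p arm of the hairpin and 11 on the 5p arm. No star of the 27 pairs with both sequences had the seed of its guide. Among the 27 pairs with both sequences, 4 stars (14.8%) and 14 guides (51.9%) began with U. The share among the other matched stars of the array was 17.6%. Argonaute proteins are known to prefer a U at the 5′ end of the strand they keep. The seed UGGGAGA was shared by miR-30c-1* and miR-30c-2*, which differed at 3 bases over their length. A seed was also shared between miR-99a* and miR-99b*, between miR-362* and miR-329, and between miR-191* and miR-17-2-3p.

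Of the 32 placed stars, 18 lay within the span of a protein-coding gene and 7 within that of a long noncoding RNA gene only; exons and introns could not be separated with the gene table, which also gives no strand. miR-378* lay within Ppargc1b, which encodes a coactivator of mitochondrial genes, and miR-483* within Igf2, the fetal growth factor gene. miR-33* lay within Srebf2, the regulator of cholesterol synthesis, and miR-511* within Mrc1, a receptor of macrophages and liver sinusoidal endothelium. miR-466b-1* and miR-466b-2* both lay within Sfmbt2, with 3037 bases between their starts. miR-652*, miR-322*, miR-362* and miR-505* were on chromosome X. miR-192* and miR-194* started 201 bases apart.

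An array stood apart and bears on every value of young males. Male 2-week replicate 3 had 165 miRNAs and 14 of the 35 stars detected, against 217 to 255 miRNAs and 28 to 32 stars on the other male 2-week arrays. Its 75th percentile was 28.05 signal units, while that of the other 4 ranged from 119.2 to 218.58. Calls between 2 weeks and adult, and between the sexes at 2 weeks, are given with it, followed by what changed without it. Over all arrays a median of 175.5 miRNAs and of 28 stars was detected, with at most 255 and 35. The median number of stars detected was 30 in adult females and 26.5 in adult males, and it was 23 on the 13 arrays of scan 2 and 33 on the 16 arrays of scan 5, where a scan is a run of scan times with no gap over 8 hours.

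The hepatocyte miRNAs miR-122, miR-192 and miR-194 were detected on all 88 arrays, while the kidney miRNA miR-196a was detected on none and miR-204 on 2. The summed level of the 3 hepatocyte miRNAs was 560 to 675 in young and 652.8 to 1289 in adult females, and 399 to 429 in young and 634 to 1272 in adult males. Leukocyte miRNAs (4 of 5 listed are on the array) had medians of 4.59 in young, 8.998 in adult and 10.65 in old females, and of 3.57, 9.01 and 12.8 in males. Red blood cell miRNAs (2 of 3) had medians of 3.95, 6.81 and 11.1 in females and 4.91, 11.1 and 11.5 in males. Biliary miRNAs (5 of 5, miR-200c on 10 arrays) went the other way with age, with medians of 3.94, 1.91 and 1.43 in females and 2.89, 2.83 and 1.85 in males. Stellate cell and smooth muscle miRNAs (5 of 5) had medians of 12.8, 14.7 and 14.3 in females and 11.2, 14.8 and 13.1 in males, and endothelial miR-126 had 19.5, 18.9 and 17.8 in females and 15.7, 19.2 and 16.5 in males. Skeletal and heart muscle miRNAs (5 of 5, none on all arrays) reached 65.6 on an adult male array with a median of 0.131 there, and pancreatic miRNAs (3 of 3) reached 2.71. The part of these lists in the results below was not tested.

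Detection differed widely between members. miR-122*, miR-652*, miR-140*, miR-126*, miR-31*, miR-30a*, miR-511*, miR-30e* and miR-466b-1* were detected on every array. A further 17 members were on 70 to 87 arrays and 9 on 20 to 52. The arm named as the guide was not always the one detected more often. The guides miR-191, miR-202, miR-423 and miR-511 were detected on no array, although their stars were on 35, 87, 84 and 88 arrays. The guide was on fewer arrays than the star for 9 members in all, among them miR-455 on 18 against 87 and miR-362 on 40 against 87. Levels were not set against each other between probes, so no statement is made on which arm is the more abundant. The median error that the scanner software gave for a member ranged from 7.50% of its signal for miR-466b-1* to 29.7% for miR-30c-1*.

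**Figure D1:**
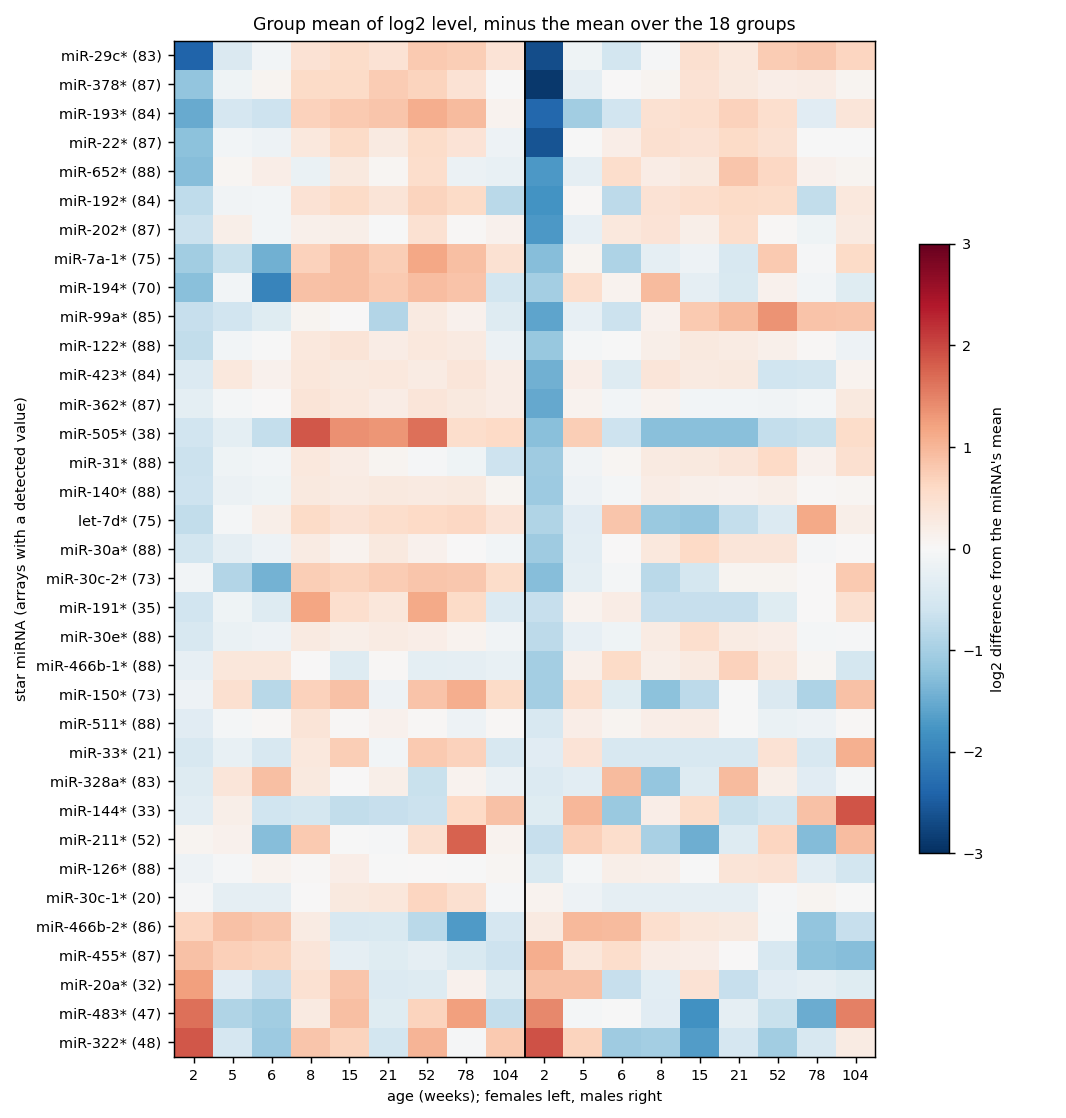
Mean log2 level of the 35 star miRNAs in the 18 groups of age and sex, each minus the mean of that miRNA over the groups. Columns are ages in weeks with females left and males right, colour is the log2 difference, and the number of arrays with a detected value is in brackets. The rows are sorted by the mean of the 2-week columns, where most members are below their own mean and miR-322* and miR-483* are above it. Undetected values enter at the lowest level.

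By the F test and a pairwise contrast, 23 members differed by age in females (57.3% of all miRNAs were called) and 21 in males (54.1%). Among the 195 miRNAs detected on at least 20 arrays, a filter that all members pass, the shares called were 68.2% and 61%. With contrasts between 5 and 104 weeks alone, 15 members were called in females (29.9% of all miRNAs) and 10 in males (22.6%). In females miR-7a-1* had a mean level of 0.0498 (4 of 5 arrays detected) at 5 weeks and of 0.155 ± 0.0317 (SD, n = 5) at 52 weeks, a log2 difference of 1.82 (SE 0.45, adjusted p = 0.0022). miR-30c-2* was detected on 3 of 5 female arrays at 5 weeks, 2 of 5 at 6 weeks and on all female arrays from 8 weeks on, and differed by 1.72 (SE 0.57, adjusted p = 0.021) between 5 and 52 weeks. Both were picked here after their values were seen, and the size of both differences depends on the level given to the undetected arrays at 5 weeks.

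A star found only on the 10 young arrays could not pass the limit of 20 arrays, so the choice of members left out stars of that kind, and the counts below describe the members and not stars in general. In females 13 members were lower at 2 weeks (22.9% of all miRNAs were called lower, 36.9% of those on at least 20 arrays) and 3 were higher (16.9% and 5.13%). In males 18 were lower (29.9% and 48.2%) and 2 were higher (19.7% and 5.13%). The median change of the members was −0.60 log2 in females and −0.93 in males, beside −0.49 and −0.66 over the miRNAs on at least 20 arrays and −0.13 in both sexes over all 314. The members' shares called lower were near those of all miRNAs on at least 20 arrays. Without male 2-week replicate 3, 16 were lower in males (miR-126* and miR-423* were lost) and 2 higher (miR-20a* in place of miR-483*). These splits turned on the scaling and on the level given to undetected arrays. With undetected values at their array's lowest level, 20 were lower and 2 higher in females and 28 lower and 2 higher in males. With the 75th percentile of the 103 miRNAs that every array detected, which raised the median change of all miRNAs by 0.18 log2 in females and 0.40 in males, 4 were lower and 5 higher in females and 6 lower and 4 higher in males. With the percentile over all 677 miRNAs, which lowered it by 0.44 and by 0.49 log2, 20 were lower and 0 higher in females and 21 lower and 1 higher in males. With normexp on the median spot signals 3 members in females and 6 in males were called in either direction. Normexp was run with an offset added to every spot, which narrows the log2 differences of low signals. A change of 1.5-fold is then harder to reach for dim stars, and the part of the offset in these counts was not tested.

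miR-193*, miR-22*, miR-29c* and miR-378* were lower in both sexes under all 3 scalings, and in males so were miR-202* and miR-652*. miR-378* is the passenger of the Ppargc1b hairpin, whose guide is linked to mitochondrial metabolism. In the 5 young females it was 0.3155, 0.3177, 0.337, 0.2838 and 0.3032. In the young males it was 0.2036, 0.1341, 0.1594 and 0.1514, and it was not detected on replicate 3. Adult females ranged from 0.614 to 1.394 (median 1.0, n = 25) and adult males from 0.4291 to 1.028 (median 0.811, n = 24), so no young array reached the lowest adult one of its sex. miR-378* was 2.95-fold lower at 2 weeks in females (log2 difference −1.56, SE 0.20, adjusted p = 7.2e-09). In males the log2 difference was −3.02 (SE 0.29, adjusted p = 3.0e-12), and −2.27 (adjusted p = 8.3e-17) without replicate 3. The mean level of miR-378* went on from 0.650 ± 0.035 (SD, n = 5) at 5 weeks to 1.21 ± 0.141 (n = 5) at 21 weeks in females, a log2 difference of 0.89 (SE 0.19, adjusted p = 6.4e-04). In males it was 0.593 ± 0.105 (n = 4) at 5 weeks and 0.960 ± 0.0756 (n = 5) at 15 weeks, and no contrast between 5 and 104 weeks was called.

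miR-22* is the passenger of miR-22, a miRNA abundant in many tissues that targets metabolic and chromatin regulators. Its level was 0.4914, 0.3458, 0.2799, 0.4279 and 0.4152 in young females and 0.2627, 0.2485, 0.3057 and 0.3412 in young males, with replicate 3 not detected. Adult females ranged from 0.7294 to 1.467 and adult males from 0.7593 to 1.642, above every young array. The log2 difference of miR-22* was −1.42 in females (SE 0.19, adjusted p = 2.0e-08; 2.68-fold) and −2.93 in males (SE 0.35), or −2.02 without replicate 3. Its guide miR-22 fell alongside, with −1.38 in females and −2.15 in males.

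miR-193* had levels of 0.07163, 0.04695, 0.0362, 0.06146 and 0.04174 in young females. In young males it was 0.03137, 0.02776, 0.03123 and 0.0519, again with replicate 3 not detected. It was detected on all 25 adult female arrays, from 0.06642 to 0.3023, and on 22 of 24 adult male arrays, up to 0.2714, so the young and adult females overlapped narrowly. The log2 difference was −1.75 in females (SE 0.36, adjusted p = 5.7e-05) and −2.41 in males (SE 0.54, adjusted p = 1.6e-04), or −2.10 without replicate 3. In females the mean of miR-193* rose further, from 0.104 ± 0.0244 (n = 5) at 5 weeks to 0.232 ± 0.0286 (n = 5) at 8 weeks (log2 difference 1.18, SE 0.32, adjusted p = 0.0082). Its guide, miR-193, was lower at 2 weeks by −1.66 log2 in females and by −2.07 in males.

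miR-29c* comes from the hairpin of miR-29c, which targets collagens and other matrix transcripts. It was detected on 3 of 5 young female arrays, at 0.05876, 0.07133 and 0.08493, and on 3 of 5 young male arrays, at 0.1029, 0.04056 and 0.03453. Every adult female array was higher, from 0.115 to 0.3156, and 23 of 24 adult male arrays detected it, up to 0.3864. The log2 difference was −2.58 in females (SE 0.29, adjusted p = 3.1e-10) and −2.69 in males (SE 0.41, adjusted p = 2.3e-07; −2.37 without replicate 3), and its size depends on the level given to the undetected arrays. Old livers had mean levels of miR-29c* of 0.2996 ± 0.0733 (SD, n = 15) in females and 0.318 ± 0.0754 (n = 14) in males, beside 0.219 ± 0.0640 (n = 25) and 0.210 ± 0.0745 (n = 24) in adults. The star did not pass the thresholds between adult and old (log2 0.47, adjusted p = 0.14 in females; 0.72, adjusted p = 0.11 in males), while its guide was higher in the old by 0.72 (adjusted p = 1.0e-04) and 0.70 (adjusted p = 6.3e-05).

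miR-652* was 0.4477, 0.4106, 0.4886, 0.4105 and 0.8505 in young females and 0.3559, 0.4068, 0.3543, 0.3656 and 0.3528 in young males. Adult levels of miR-652* were spread widely, from 0.6674 to 3.131 in females and from 0.4265 to 6.253 in males. The log2 difference was −1.36 in females (SE 0.31, adjusted p = 1.8e-04) and −2.08 in males (SE 0.39, adjusted p = 1.1e-05). The young males lay below every adult male, and the young females overlapped the adult females at 1 array.

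**Figure D2:**
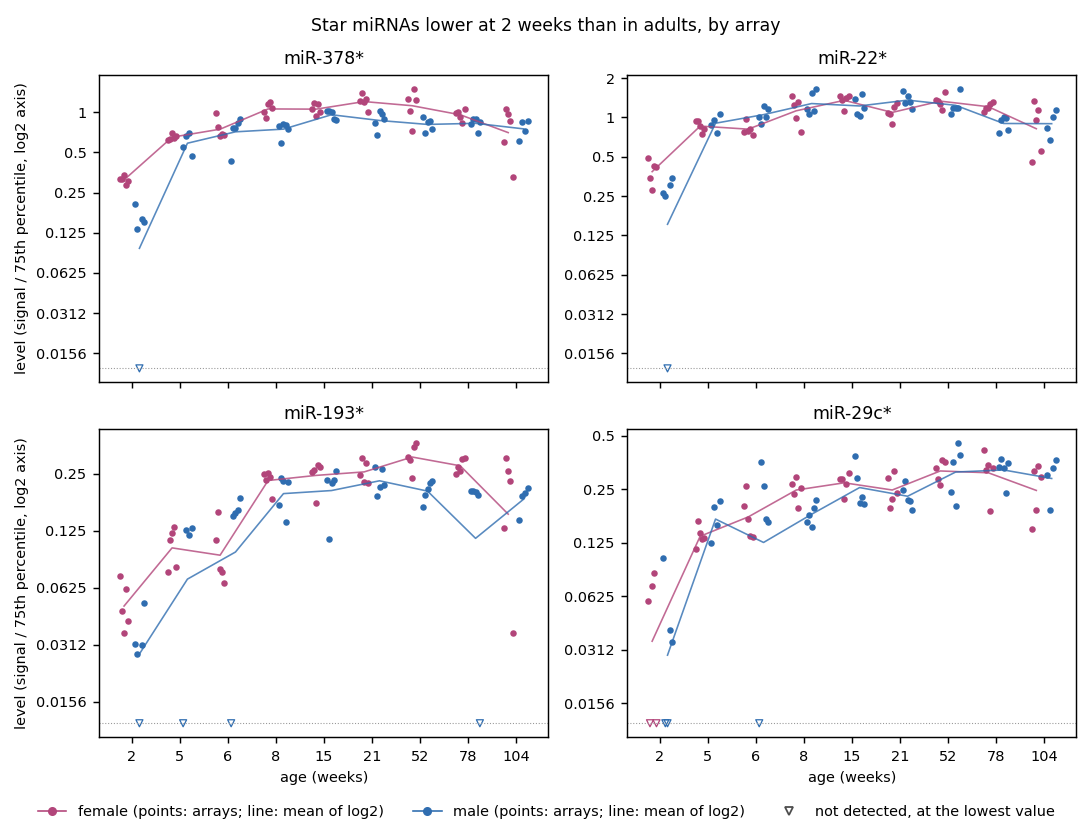
Levels of miR-378*, miR-22*, miR-193* and miR-29c* by age in weeks, on a log2 axis of signal over the array's 75th percentile, with a point for each array, females and males in separate colours and lines through the means of log2 levels. Open triangles are undetected arrays at the lowest level. The 2-week points of miR-378* and miR-22* lie below every adult point of their sex, and the undetected male replicate 3 draws the male line down at 2 weeks.

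The other members that were lower at 2 weeks had smaller differences. miR-122*, the passenger of the main hepatocyte miRNA, ranged from 9.31 to 15.0 in young and from 14.2 to 32.3 in adult females, and from 6.42 to 13.4 in young and from 13.7 to 29.2 in adult males. Its log2 difference was −0.89 (adjusted p = 1.4e-05) in females and −1.26 (adjusted p = 6.8e-10) in males. In both sexes miR-140*, miR-192*, miR-202*, miR-30a*, miR-31* and miR-423* were also lower, by −0.60 (miR-30a*) to −0.997 (miR-192*) in females and by −1.16 (miR-140*) to −1.97 (miR-202*) in males. Without replicate 3, on which it was not detected, miR-202* had −1.22 (adjusted p = 1.4e-04) and miR-192* −1.40 (adjusted p = 0.023) in place of −1.94. miR-423* lost its call in males without replicate 3 (log2 −0.98, adjusted p = 0.16). let-7d* was lower in females (−1.07, adjusted p = 0.034), not with the scan as a block (adjusted p = 0.15). With that block miR-7a-1* was also called lower in females (adjusted p = 0.031) and males (0.022). So were miR-505* in females (0.037) and miR-194* in males (0.045). miR-126*, miR-30e*, miR-362*, miR-466b-1*, miR-511* and miR-99a* passed both thresholds in males and not in females, from −0.60 for miR-126* to −1.79 for miR-99a*. In females miR-30e* (−0.54, adjusted p = 0.0011), miR-362* (−0.46, adjusted p = 2.1e-04) and miR-511* (−0.44, adjusted p = 0.0036) were under 1.5-fold, and the difference between the sexes in this change was not called for miR-126*, miR-30e* and miR-511* (adjusted p = 0.46, 0.25 and 0.61). In males miR-126* was under 1.5-fold and so not called without replicate 3 (−0.58) or with the scan as a block (−0.42). Without replicate 3, miR-362* had −0.60 in place of −1.53 and miR-99a* −1.36, both still called. Of these 6, miR-126*, miR-30e* and miR-511* turned to 0.51, 0.17 and 0.48 log2 higher with the percentile over miRNAs detected on all arrays, as did miR-30a* in females (0.07).

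The members that were higher at 2 weeks were miR-322* in both sexes, miR-20a* and miR-455* in females, and miR-483* in males. miR-455* had 0.66 log2 in females (adjusted p = 0.039), which turned to −0.11 (adjusted p = 0.94) with the percentile over all miRNAs. miR-322* belongs to an X-linked cluster whose miRNAs restrain the cell cycle. It was detected on all 10 young arrays, at 0.156, 0.1314, 0.1397, 0.137 and 0.129 in females and at 0.1534, 0.1191, 0.164, 0.1417 and 0.1428 in males. It was detected on 13 of 25 adult female arrays (up to 0.121) and on 7 of 24 adult male arrays (up to 0.1337), so the young females lay above every adult female, while a young male lay within the adult male range. The log2 difference of 1.99 (SE 0.65, adjusted p = 0.0093) in females and 2.69 (SE 0.66, adjusted p = 5.0e-04) in males rests on the lowest level given to undetected arrays. Of the members higher at 2 weeks, miR-322* in males kept its call under all 3 scalings. miR-20a*, of the miR-17-92 proliferation cluster, had 1.27 log2 (adjusted p = 0.0051) in females with 5 of 5 young and 9 of 25 adult arrays detected, and −0.08 with undetected values at their array's lowest level.

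miR-483* was detected on all young arrays, at 0.1392, 0.1372, 0.1948, 0.1084 and 0.1056 in females and 0.1296, 0.08452, 0.08359, 0.1683 and 0.1372 in males. In adults it was detected on 12 of 25 female and 8 of 24 male arrays. The log2 difference was 1.97 in males (SE 0.85, adjusted p = 0.045; 0.060 without replicate 3 and 0.10 with the scan as a block) and 1.87 in females (adjusted p = 0.053). Its guide miR-483 had a mean level of 1.43 ± 0.195 (n = 5) in young females and 1.61 ± 0.224 (n = 5) in young males, and was detected on 5 adult female and 2 adult male arrays.

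All 20 male calls between young and adult had the same direction in every scan that held both classes. So did 15 of the 16 female ones, with let-7d* the exception. Scans 4 and 5 each held 1 young male and scan 2 held 1 young female, and these arrays are also part of the calls. Some values were small, such as −0.04 log2 for miR-126* in scan 4 and −0.18 for miR-423* in scan 5, both in males.

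The groups listed by family and locus were mostly represented by single stars. Of the miR-30 family, 4 of 5 stars on the array were members, of which miR-30a* was lower at 2 weeks in females and miR-30a* and miR-30e* in males. The miR-466, miR-467, miR-297 and miR-669 cluster had 2 of 3, of which miR-466b-1* was lower in males. The let-7 family had 1 of 9 (let-7d*, lower in females), the miR-17-92 and related clusters 1 of 12 (miR-20a*, higher in females), the miR-29 family 1 of 4 (miR-29c*, lower in both sexes) and the miR-99, miR-100 and miR-125 families 1 of 4 (miR-99a*, lower in males). The X-linked miR-322 to miR-542 cluster had 1 of 4 (miR-322*, higher in both sexes) and the X-linked miR-188 to miR-532 cluster 1 of 4 (miR-362*, lower in males). The imprinted Dlk1-Dio3 locus had 37 stars on the array, of which 14 were detected on at least 1 array and 0 on 20. The miR-23, miR-24 and miR-27 clusters had 0 of 6 and the miR-34 family 0 of 3.

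Whether a star changed with or apart from its guide was read from the log2 ratio of star to guide signal within each array, in which the array's scaling cancels and which leaves out arrays with either arm undetected. An arm pair was available for 30 members. Over the 27 pairs with both arms on at least 20 arrays, the median SD was 0.52 log2 for the star, 0.52 for the guide and 0.41 for the ratio, and the ratio varied less than the star in 18. The smallest SD was that of miR-322* (0.22) and the largest that of miR-652* (1.05).

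In young against adult females, 13 of the stars called had a guide in the pairs. All 13 guides had the sign of their star and 9 were called in the same direction. The ratio was called for 0 of these 13 by limma, and its 95% interval lay within 1.5-fold for 9, among them miR-22* (−0.04, −0.39 to 0.31), miR-193* (−0.09, −0.53 to 0.34) and miR-30a* (0.05, −0.18 to 0.29). The 9 also hold miR-20a* and miR-322*, whose ratios rest on the 9 and 13 of 25 adult arrays that detected the star, so for them the interval says nothing on the other adult arrays; over all arrays these stars differed by 1.27 and 1.99 log2 and their guides by 0.10 and 0.57. Over all 25 member pairs tested, 1 ratio was called (3.03% of 33 pairs) and 6 had an unadjusted p below 0.05.

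In males, 16 of the stars called had a guide, of which 15 had the same sign and 11 were called in the same direction. The ratio could be tested for 15 of them, and its interval lay within 1.5-fold for 6, among them miR-122* (−0.08, −0.37 to 0.21) and miR-193* (−0.05, −0.39 to 0.28). miR-22* had 0.26 (−0.10 to 0.62). The 6 also hold miR-322*, whose ratio rests on at most the 7 of 24 adult arrays that detected the star. Of 23 member pairs tested, 1 ratio was called (10% of 30 pairs) and 5 had an unadjusted p below 0.05.

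In males miR-652* was the member with a called ratio. There the ratio was 1.94 log2 lower at 2 weeks (interval −2.86 to −1.01, adjusted p = 0.0035), since the star was lower by −2.08 and the guide by −0.15 (adjusted p = 0.41). In females the ratio difference was −0.96 (−1.80 to −0.12, adjusted p = 0.14; 0.012 with the scan as a block). The guide miR-652 itself was 0.871 ± 0.0968 (n = 5) in young and 0.978 ± 0.178 (n = 24) in adult males.

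miR-483* was the female call, with a ratio 3.71 log2 lower at 2 weeks (−4.81 to −2.61, adjusted p = 9.7e-04). It rests on 3 adult arrays on which both arms were detected, and the guide was 6.34 log2 higher at 2 weeks in females and 6.78 in males. For miR-29c* the ratio was higher at 2 weeks by 0.55 (0.16 to 0.95, adjusted p = 0.060) in females and 0.80 (0.23 to 1.38, adjusted p = 0.055) in males, from the 3 young arrays of each sex that detected the star. These are the young arrays on which the star was high enough to be measured, so the ratio has no settled direction: over all arrays, with undetected values at the lowest level, the star differed by −2.58 and its guide by −2.05 in females and by −2.69 and −2.90 in males. For miR-466b-1* in males it was −0.84 (−1.47 to −0.22, adjusted p = 0.055), against a guide that has 2 loci.

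**Figure D3:**
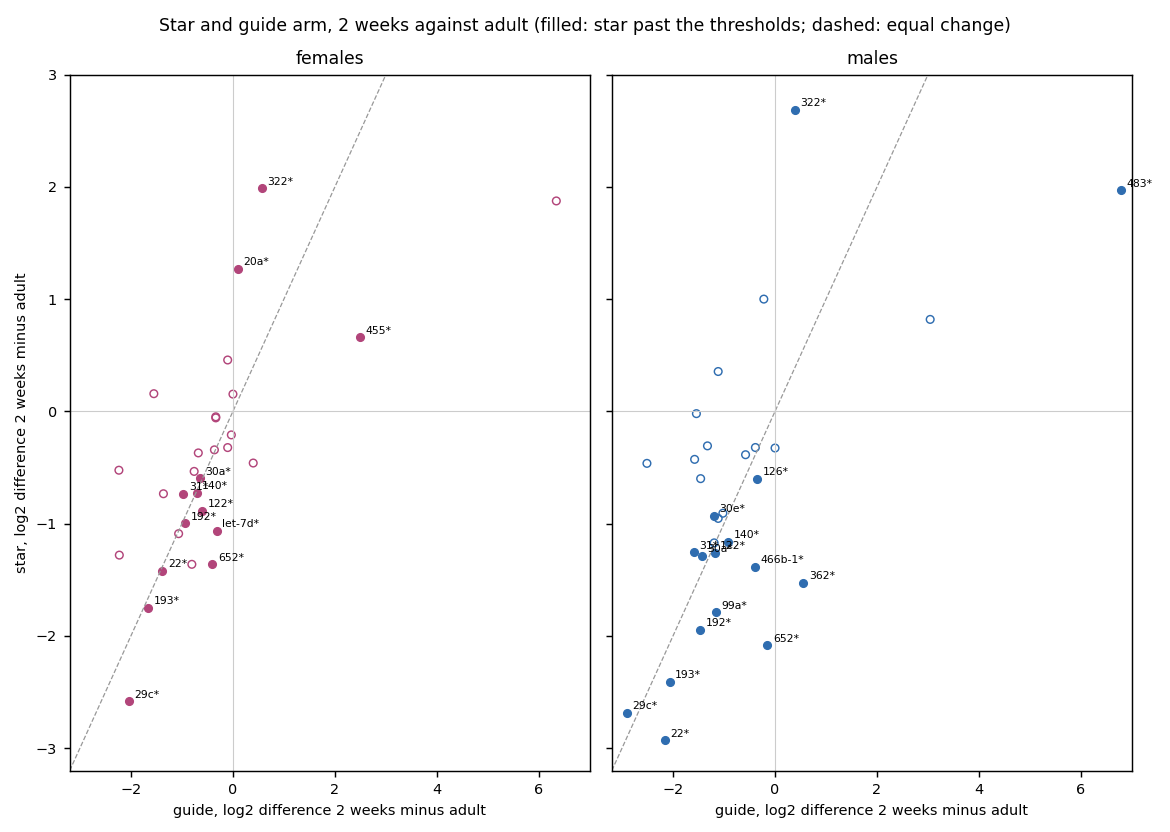
Log2 difference of 2 weeks minus adult for the guide (horizontal) and the star (vertical) of each pair, females left and males right, with filled points for stars past the thresholds and the dashed line for equal change. Points of miR-193* and miR-122* lie near the line in both sexes and miR-22* in females, miR-22* in males and miR-652* in both sexes lie below it, and miR-483* far to the right. Undetected arrays enter at the lowest level here, while the ratio test leaves them out.

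**Figure D4:**
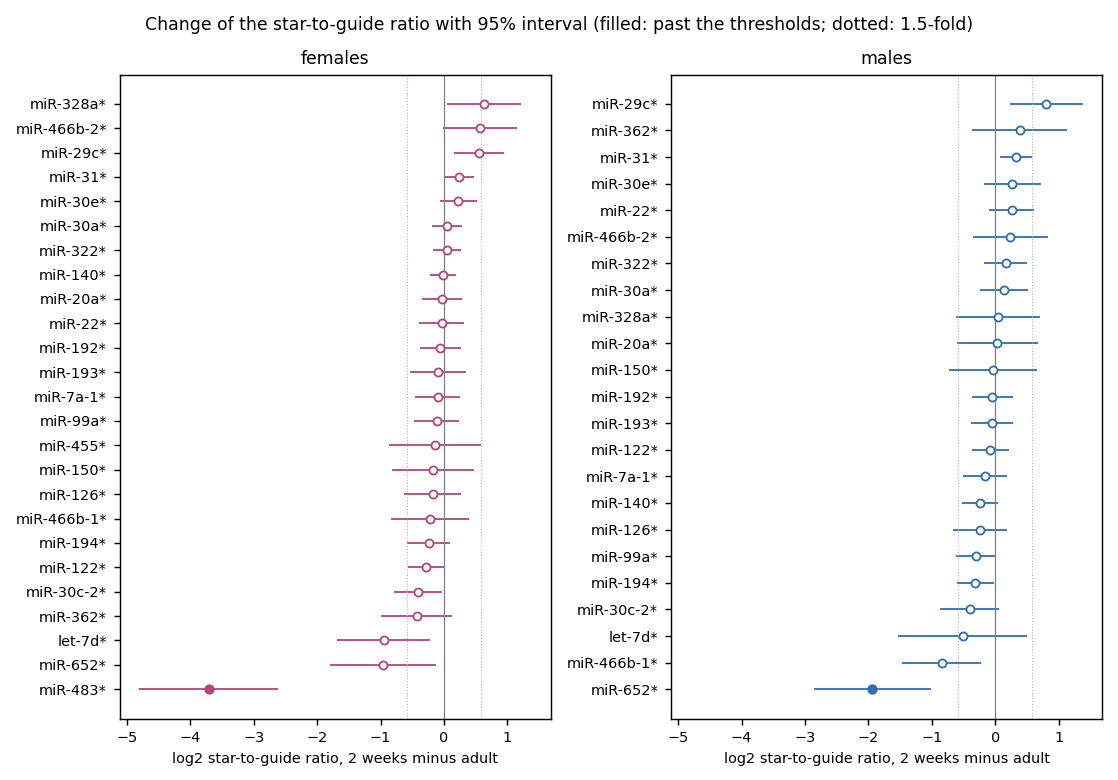
Change of the log2 star-to-guide ratio, 2 weeks minus adult, with its 95% interval, for each member pair tested in females (left) and males (right). Filled points are past the thresholds and dotted lines mark 1.5-fold. The call in females is miR-483* at −3.71 and the call in males is miR-652* at −1.94.

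Between adult and old livers few members changed. In females miR-455* and miR-466b-2* were lower in the old (2.87% of all miRNAs were called lower) and 0 were higher (1.59%). In males the same 2 were lower (1.27%) and miR-99a* was higher (3.82%). With the scan as a block miR-7a-1* was also called higher in old males (limma adjusted p = 0.049). With normexp on the median spot signals and its offset, 0 members were called in either sex. miR-466b-2* comes from a large rodent cluster within Sfmbt2. Its mean level in females went from 0.664 at 2 weeks through 0.787, 0.738, 0.503, 0.305 and 0.306 at 5, 6, 8, 15 and 21 weeks to 0.253, 0.194 and 0.298 at 52, 78 and 104 weeks. In males it went from 0.512 through 0.831, 0.840, 0.628, 0.540 and 0.524 to 0.407, 0.296 and 0.266. The adult and old arrays overlapped, from 0.251 to 0.969 against up to 0.361 in females and from 0.3265 to 1.189 against up to 0.511 in males, and within the adult females 15 weeks was already lower than 5 weeks (log2 difference −1.38, SE 0.43, adjusted p = 0.020). The log2 difference of old against adult was −1.21 (SE 0.27, adjusted p = 0.0017) in females and −1.24 (SE 0.28, adjusted p = 0.0013) in males.

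miR-455*, whose hairpin lies within the collagen gene Col27a1, had female means of 0.467, 0.430, 0.408, 0.333, 0.215, 0.202, 0.225, 0.193 and 0.165 from 2 to 104 weeks. The male means were 0.539, 0.336, 0.387, 0.318, 0.297, 0.261, 0.185, 0.155 and 0.116. In both sexes the 2-week mean was the highest and the 104-week mean the lowest, while neighbouring ages overlapped. The log2 difference of old against adult was −0.67 (SE 0.18, adjusted p = 0.012) in females and −1.24 (SE 0.26, adjusted p = 6.1e-04) in males, and −0.58 in females with the scan as a block, under 1.5-fold. With the percentile over all miRNAs of the array, 0 members were called in females, and in males miR-455* and miR-466b-2* were.

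The guide miR-466b was lower in the old by −0.68 (adjusted p = 0.027) in females and −0.66 (adjusted p = 0.39) in males, and the ratio of miR-466b-2* to it differed by −0.27 (−0.67 to 0.13) and −0.34 (−0.76 to 0.07). This guide has 2 loci, so the ratio is not that of a single hairpin. No member's star-to-guide ratio passed the thresholds between adult and old in either sex by limma (0 of 27 pairs in females and 0 of 25 in males, beside 0% of 39 and of 34 pairs in all), with 2 and 1 at an unadjusted p below 0.05. The interval lay within 1.5-fold for 17 pairs in females and 16 in males.

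Males and females differed in 10 members at 1 or more ages (37.3% of all miRNAs, and 35.4% of those on at least 20 arrays). Among them miR-505*, miR-191*, miR-322* and miR-33* passed the limit of 20 arrays through the group called higher. Their calls, which include every call at 8 and 15 weeks, are a description and no support for a sex difference. By age, 4 members were called at 2 weeks (18.8% of all miRNAs), 0 at 5 (0%), 0 at 6 (0.637%), 2 at 8 (5.1%), 2 at 15 (9.24%), 2 at 21 (6.05%), 3 at 52 (6.69%), 0 at 78 (3.82%) and 2 at 104 weeks (4.46%). With the percentile over all miRNAs 13 were called at 8 weeks, 5 at 52 weeks and 0 at 104 weeks. With undetected values at their array's lowest level 0 were called at 8, 7 at 15, 1 at 21, 1 at 52 and 1 at 78 weeks. With normexp on the median spot signals and its offset, 0 members were called at any age. The offset narrows the differences of dim stars, so this count cannot settle whether they differ.

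At 2 weeks miR-202*, miR-22*, miR-362* and miR-378* were lower in males, and miR-202* was not called with the scan as a block (adjusted p = 0.095). Without replicate 3, miR-378* (log2 −0.96, adjusted p = 1.2e-05) and miR-30a* (−0.72, adjusted p = 0.0011) were called, while miR-202*, miR-22* and miR-362* had −0.31, −0.42 and −0.33 and were not. miR-202* and miR-362* were also not called under either other scaling (adjusted p = 0.27 and 0.063 over miRNAs detected on all arrays, 0.29 and 0.058 over all miRNAs). The 4 other young males had miR-378* between 0.1341 and 0.2036, all below the 5 young females. A test of the change from 2 weeks to adult between the sexes called 7 members (21.3% of all miRNAs). Without replicate 3 it called miR-30a* (−0.89), miR-30e* (−0.64) and miR-378* (−0.71, adjusted p = 0.036).

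miR-99a*, of a family that also holds miR-100 and targets the mTOR kinase, was higher in males at 21 weeks. At this age females had 0.05725, 0.1214, 0.1132 and 0.1167, with 1 array not detected, and males had 0.2201, 0.1805, 0.2579, 0.277 and 0.2203. The log2 difference, male minus female, was 1.83 (SE 0.40, adjusted p = 0.0010). Its size depends on the level given to the undetected female array: with undetected values at their array's lowest level it was 1.315, still called. At 15, 52 and 104 weeks the sexes also did not overlap, with 0.1085 to 0.1282 in females against 0.1828 to 0.2438 in males at 15 weeks, 0.1267 to 0.1635 against 0.2917 to 0.317 at 52 weeks and 0.04305 to 0.1624 against 0.2029 to 0.2197 at 104 weeks, although the adjusted p was 0.22, 0.075 (0.041 with the scan as a block) and 0.10. The calls at these ages turned on the setting: with the percentile over miRNAs detected on all arrays the adjusted p was 0.32, 0.023 and 0.045, with that over all miRNAs 0.10, 0.030 and 0.85, and with undetected values at their array's lowest level 0.0040, 3.9e-04 and 2.5e-04. A lack of overlap without a call was not particular to miR-99a*. It was also seen for miR-140* and miR-652* at 2 weeks, miR-378* at 8, miR-193* at 52, and miR-22* and miR-362* at 78 weeks. miR-466b-2* had it at 2, 15 and 21 weeks, and the share over all miRNAs was not counted. At 8 weeks the mean of miR-99a* was 0.125 ± 0.0121 (n = 5) in females and 0.131 ± 0.0307 (n = 5) in males. At 2 weeks it was the lower in males, at 0.0463 (4 of 5 arrays detected) beside 0.0752 ± 0.0178 (n = 5), with a log2 difference of −0.89 (adjusted p = 0.088). The guide miR-99a was called higher in males at 15, 21, 52, 78 and 104 weeks, by 0.66, 0.68, 1.04, 0.90 and 0.91 log2. The ratio at 21 weeks differed by 0.53 (0.10 to 0.96, adjusted p = 0.13).

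In males the old were also above the adults in miR-99a* (log2 0.81, SE 0.26, adjusted p = 0.038), not with the percentile over all miRNAs (adjusted p = 0.55). The guide had 0.87 (adjusted p = 1.3e-05), and the ratio differed by −0.18 (−0.38 to 0.01).

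miR-31* was higher in males at 52 and 104 weeks. At 52 weeks females ranged from 0.622 to 0.795 and males from 1.022 to 1.18, a log2 difference of 0.63 (adjusted p = 0.049), with an adjusted p of 0.10 when scan was a block. At 104 weeks females had 0.1985, 0.8279, 0.819, 0.587 and 0.2977 and males 0.9655, 1.039, 1.033 and 1.0, a log2 difference of 1.10 (SE 0.23, adjusted p = 4.4e-04), which was not called with the percentile over all miRNAs (0.60, adjusted p = 0.81). Females spread over a wide range at this age and males did not, and no female reached a male. At 78 weeks the sexes overlapped, with a male at 0.2859. The guide miR-31 differed by 0.50 (adjusted p = 0.081) at 52 weeks and 0.96 (adjusted p = 4.4e-04) at 104 weeks, and the ratio by 0.13 and 0.14.

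**Figure D5:**
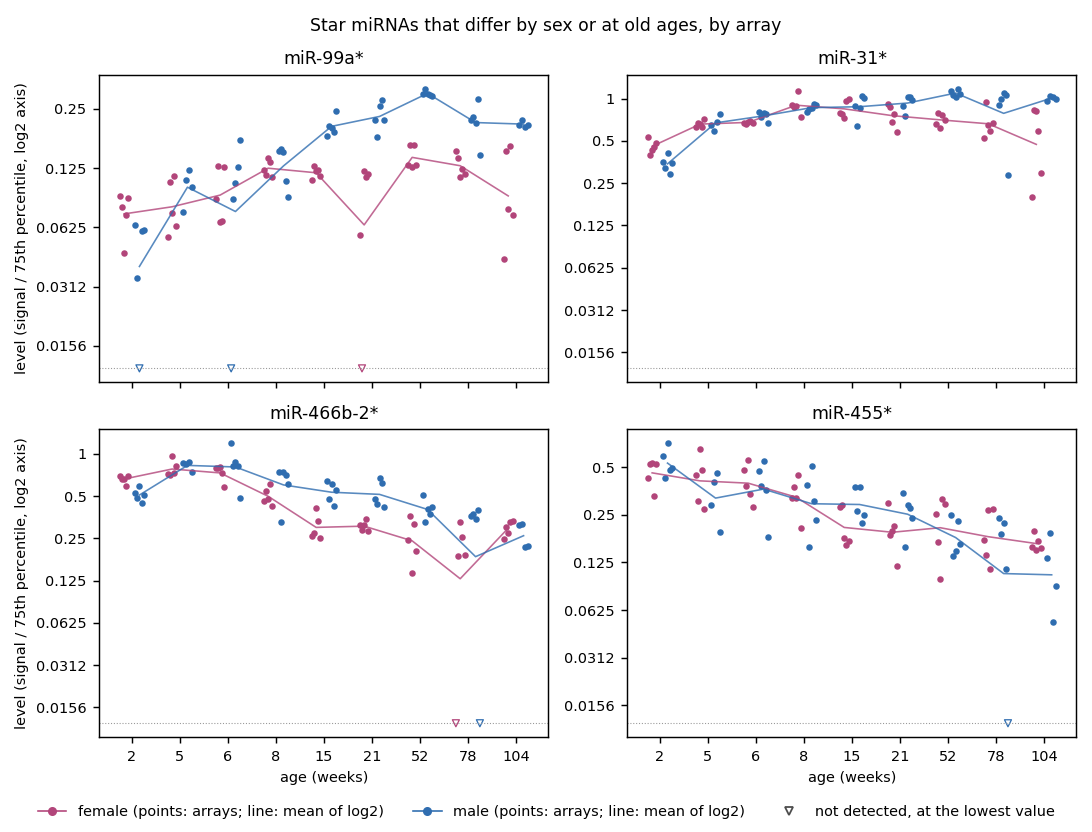
Levels of miR-99a*, miR-31*, miR-466b-2* and miR-455* by age in weeks, on a log2 axis of signal over the array's 75th percentile, with a point for each array, females and males in separate colours and lines through the means of log2 levels. Open triangles are undetected arrays at the lowest level. Males lie above females in miR-99a* at 15, 21, 52 and 104 weeks and in miR-31* at 52 and 104 weeks, and miR-466b-2* and miR-455* are lower in the old than in the adults.

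miR-505*, on chromosome X, was called higher in females at 8, 15, 21 and 52 weeks (adjusted p = 0.0028, 0.0082, 0.0090 and 0.018). Over all ages it was detected on 29 of 45 female and 9 of 43 male arrays, so it passed the limit of 20 arrays through the females. Its counts by sex and its calls are therefore a description and no support for a sex difference. The same holds for miR-191*, with 25 female and 10 male arrays, and for miR-322*, with 30 and 18. miR-33* was on 21 arrays and would not reach the limit without the 3 detected males of 104 weeks, where it was called higher. At 8, 15, 21 and 52 weeks miR-505* was detected on 5, 4, 4 and 5 of 5 female arrays and on 0, 0, 0 and 1 of 5 male arrays. The measured female levels were between 0.0860 and 0.127 at 8 weeks. With males set to the lowest signal their arrays measured for any miRNA, females were 1.73-fold higher at 8 weeks and 1.11-fold higher at 21 weeks. At 15 weeks females were at 0.98 times the males. These are ratios of mean log2 levels without a test. They are lower bounds only if the undetected male levels lay under that lowest signal, which was not tested. With undetected values at their array's lowest level the log2 differences were −0.79, −0.29, −0.52 and −0.56, and none of the 4 was called. The guide miR-505 was called lower in males at 78 weeks (log2 −1.44, adjusted p = 0.016). miR-191* at 8 and 52 weeks and miR-322* at 15 weeks were called higher in females and miR-33* at 104 weeks higher in males (3 of 4 against 0 of 5 arrays detected). With the percentile over all miRNAs miR-322* and miR-33* were not called (adjusted p = 0.060 and 0.19), and with that over miRNAs detected on all arrays miR-191* was not called at 52 weeks (adjusted p = 0.087). With undetected values at their array's lowest level none of these 4 calls was made. miR-191* then turned to 0.46 and 0.31 log2 higher in males at 8 and 52 weeks and was called higher in males at 15 weeks (0.79, adjusted p = 0.034), while miR-322* had 0.0087 and miR-33* 0.26. For these calls no fold is given, since the ratio to the lowest measured signal was under 1 or the levels of the lower group were mostly undetected.

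Within scans that held both sexes, the calls kept their direction except those of miR-22* at 2 weeks and miR-33* at 104 weeks. At 2 weeks the scans with both sexes, scan 4 and scan 5, each held 1 male and 2 females and not male replicate 3, so these values leave out that array too. There miR-202* had −0.08 and −0.13 log2 within scans against −1.06 over all arrays, miR-362* −0.14 and −0.46 against −1.25, and miR-378* −1.11 and −1.16 against −1.70. The star-to-guide ratio differed between the sexes in 1 member at 1 age (4.76% of 42 pairs), miR-328a* at 21 weeks, which was 1.20 log2 higher in males (SE 0.37, 0.47 to 1.93, adjusted p = 0.042). This ratio was not called with undetected values at their array's lowest level, with normexp or with the replicate number as a block.

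The change from adult to old did not differ between the sexes by limma for any member (0 called, 1.27% of all miRNAs). The member nearest to the threshold was miR-31*, with 0.55 log2 (adjusted p = 0.095), which was called with the percentile over miRNAs detected on all arrays (0.70, adjusted p = 5.5e-04).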

How the data were processed

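Liver RNA was hybridized to Agilent rat miRNA arrays (Cy3). The authors deposited, for each of the 88 arrays, Feature Extraction output in which the total gene signal of a miRNA is a background-subtracted linear intensity and 0.1 stands for not detected, and a table in which that signal is a ratio to the array's 75th percentile. Here these signals were taken from the scanner output, with probes joined by name, since 17 arrays were extracted with a later design file. Signals were divided by the value of rank 236 among 314 expressed miRNAs, undetected values were set to 0.01202, and log2 was taken. Of 15763 detected values, 1 differed from the deposited table by more than 0.01%. No target spot was saturated. The number of arrays limits the precision, and replicates are different animals.

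All fits used limma 3.58.1 (lmFit, eBayes) in R 4.3.3 over the 314 miRNAs, within each sex for age and over 18 groups for sex, with Benjamini-Hochberg adjustment, an adjusted p below 0.05 and at least 1.5-fold. Ratio tests used all arm pairs with both arms detected on at least 3 arrays in each group, adjusted over those pairs; limma's interval is at 95%. miR-378 was given no pair because the design files name its probes differently. The named miRNAs were, in each comparison, up to 10 past the thresholds with the largest differences, those called between the sexes at 2 or more ages, the 10 with the highest mean level, those at the detection limit, and those with a called ratio, each with its guide. The rule that chose the members also left out 1 star by name, which is not reported here; it was detected on fewer than 20 arrays, so the 35 members are the same without that clause. The members, the family and marker lists and the tests were chosen with earlier results of these data known. The code was tested on simulated data. Python 3.11.15, numpy 2.4.6 and pandas 2.3.3 were used. Coordinates are GRCr8 of RefSeq. The alternatives were other scalings, other values for undetected miRNAs, a detection filter, normexp, scan and slide as blocks, the replicate number as a block, leaving out the later design, the deposited table, the methods' t-test and each array left out; those of the interaction, and leaving out male 2-week replicate 3 beside the counts, were chosen after seeing the data. The labels' replicate numbers were not taken to pair animals.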

Additional observations from a re-analysis of the deposited data

Results flagged for a closer look

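In 7 of 95 groups of 4 or 5 arrays, 1 array stood far from the others of its group relative to the group's range; chance alone marks about 1 in 20 groups. miR-378* was at 0.4291 in 6-week male 1 and at 0.5928 in 8-week male 2, both the lowest of their group. miR-466b-2* was lowest, at 0.3265, in 8-week male 2 as well. miR-31* was at 0.2859 in 78-week male 6, an array with 16 of the 35 stars detected. miR-99a* was at 0.317 in 52-week male 5, the highest of that group. miR-652* was highest at 0.8505 in 2-week female 6 and at 0.4068 in 2-week male 2.

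The change from adult to 2 weeks differed between males and females, by the interaction term in limma, for 7 members. The male minus female difference in that change was −1.24 log2 for miR-202*, −1.51 for miR-22*, −0.69 for miR-30a*, −1.07 for miR-362*, −1.45 for miR-378*, −1.06 for miR-466b-1* and −1.45 for miR-99a*. Of these, miR-30a* and miR-378* were called without male 2-week replicate 3, on which miR-22*, miR-202*, miR-362*, miR-378* and miR-99a* were not detected.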

How the results depend on the processing

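Of 131 alternatives to the 13 counts, other than leaving out an array, 104 stayed within 1.5 times the value reported. With the percentile over miRNAs detected on all arrays, 9 members were called at 2 weeks in females and 10 in males, 13 by age in males and 2 by the interaction. With the percentile over all miRNAs, 0 were called between adult and old in females. With normexp on the median spot signals and its offset, the counts were 3 in females and 6 in males at 2 weeks, 0 and 0 between adult and old, and 0 between the sexes. For ratios they were 2 in females and 2 in males at 2 weeks, 1 and 2 between adult and old, and 2 between the sexes. With the scan as a block, 1 member was called between adult and old in females, and 5 ratios at 2 weeks in females and 3 between the sexes. With the slide as a random block, 4 ratios in females and 3 in males were called at 2 weeks. With undetected values at their array's lowest, the ratio counts were 4, 4 and 5 between the sexes, and the interaction 4. With well detected pairs alone, 0 ratios were called in females at 2 weeks. The methods' t-test at an unadjusted p gave 6 between adult and old in males. The cause of these differences was not tested. For single members, miR-20a* in females turned to −0.082, miR-191* between the sexes to 0.46 at 8 weeks and 0.31 at 52 weeks, and miR-322* at 15 weeks to 0.0087 with undetected values at their array's lowest; miR-30a* in females turned to 0.070 and miR-126*, miR-30e* and miR-511* in males to 0.51, 0.17 and 0.48 with the percentile over miRNAs detected on all arrays; miR-455* at 2 weeks in females turned to −0.11 with that over all miRNAs. The replicate block changed the ratio count between the sexes to 0 and moved no other count by over 1.5 times (16 and 18 members at 2 weeks in females and males). Same-numbered arrays had a mean correlation of 0.0532 beside −0.00759 for other numbers. Leaving out each array gave 22 to 25 members by age in females and 20 to 23 in males, 13 to 18 and 18 to 21 at 2 weeks, 2 to 3 and 2 to 4 between adult and old, 8 to 11 between the sexes, and 3 to 7 by the interaction; the lowest counts between the sexes and by the interaction came without male 2-week replicate 3. For ratios it gave 0 to 2 in females and 1 to 3 in males at 2 weeks, 0 and 0 between adult and old, and 0 to 4 between the sexes; miR-328a* rests on the arrays of 21 weeks, and the count was 0 without female 21-week replicate 1. A level near 0.01202 is set by the array's sensitivity, so members on few arrays have bounds and not levels on most of them.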
